A study of Rattus norvegicus with 9 samples.

Results

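Glucocorticoid-responsive genes were followed in the hypothalamus of 9 rats. The 10 genes listed as known targets of the glucocorticoid receptor were Sgk1, Klf9, Fkbp5, Tsc22d3, Zbtb16, Ddit4, Nfkbia, Errfi1, Pdk4 and Cdkn1a. Their members on the array were taken to be every probe set (a group of probes read as 1 value) that the platform annotation assigns to 1 of these symbols alone, which gave 14 of 31042 probe sets, for 9 of the 10 genes and out of 14217 genes with a symbol. Zbtb16 was not analysed here.

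The animals were male rats aged 13 weeks, each measured on 1 Affymetrix rat expression array. The noodle diet, with instant noodle including its seasonings, was eaten by 4 of them (numbers 1, 4, 7 and 13). The other 5 (numbers 2, 5, 8, 11 and 14) ate the control diet, which per the series description left out only the seasonings. Instant noodle made up 30% of the weight in either diet and fat supplied 26% of the energy, and the groups were pair-fed about 60 g per kg of body weight each day, for 30 days in one label and 4 weeks in another. No glucocorticoid was given in either group by the labels, and strain, time of death and hormone levels are not stated there. Neuropeptide genes that mark the hypothalamus were read in all 9 rats, Pmch between 11.85 and 12.37, Hcrt between 8.75 and 10.05 and Avp between 10.49 and 11.84 on the log2 scale. Of 11 marker genes measured, Pomc stood lowest, at 6.26 in every rat and below the median of each array.

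Glucocorticoids, corticosterone in the rat, are released by the adrenal cortex at the end of a hormone cascade that starts in the hypothalamus. They bind the glucocorticoid receptor, a ligand-activated transcription factor that moves into the nucleus and binds DNA, often as a dimer at 2 inverted half-sites separated by a short spacer. The hypothalamus is both the origin of this axis and one of the places where the hormone feeds back on it. In brain tissue the receptor is present in neurons, glia and vessels, and several of its targets, Sgk1 and Tsc22d3 among them, are used as readouts of circulating hormone.

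The promoters of the 4 genes whose values could be read over the rats (below) are shown first, because the receptor acts through DNA near such genes. The sequences are RefSeq's, on the assembly GRCr8, and cover the 250 bases before a transcription start, written 5′ to 3′ in the direction of the gene. The 9 measured genes matched 13 such windows, with several starts for Sgk1 and Tsc22d3. The table holds 3 windows for Sgk1, of which the one farthest downstream is printed, and 3 for Tsc22d3, of which the one with a receptor core is printed.
Tsc22d3, chrX:109065431-109065680, minus strand: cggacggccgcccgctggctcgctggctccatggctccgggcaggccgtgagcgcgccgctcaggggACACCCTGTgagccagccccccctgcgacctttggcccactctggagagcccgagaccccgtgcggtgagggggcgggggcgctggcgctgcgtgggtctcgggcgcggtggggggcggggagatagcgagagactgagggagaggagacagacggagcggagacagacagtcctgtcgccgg
Sgk1, chr1:24804832-24805081, minus strand: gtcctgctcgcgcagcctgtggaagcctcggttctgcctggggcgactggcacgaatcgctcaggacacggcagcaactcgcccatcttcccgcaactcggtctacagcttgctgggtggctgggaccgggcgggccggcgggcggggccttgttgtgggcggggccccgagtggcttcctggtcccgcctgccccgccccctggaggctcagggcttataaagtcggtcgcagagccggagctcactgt
Klf9, chr1:230126396-230126645, plus strand: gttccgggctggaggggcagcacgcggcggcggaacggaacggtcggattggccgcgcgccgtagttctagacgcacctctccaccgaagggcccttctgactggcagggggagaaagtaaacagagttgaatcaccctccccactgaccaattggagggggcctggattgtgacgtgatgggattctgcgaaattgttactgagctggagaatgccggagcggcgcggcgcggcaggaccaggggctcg
Nfkbia, chr6:78597073-78597322, minus strand: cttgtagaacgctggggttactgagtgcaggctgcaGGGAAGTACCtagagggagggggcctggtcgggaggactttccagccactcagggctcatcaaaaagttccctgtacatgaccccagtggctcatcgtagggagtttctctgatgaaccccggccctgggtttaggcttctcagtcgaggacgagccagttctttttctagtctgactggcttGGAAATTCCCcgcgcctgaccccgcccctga

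In the Tsc22d3 window the capitals mark ACACCCTGT, a match to ACANNNTGT, the core of the palindromic receptor element, starting 183 bases before the transcription start. The core was found in 1 of the 13 windows of these genes and in 5.81% of 33469 windows of all rat genes, so a single match among 13 is near what any set of windows holds. The half-site AGAACA, searched on both strands, was in 0 of the 13 windows and in 17.5% of all. In the Nfkbia window the capitals mark matches on either strand to GGG, any 5 bases and CC, a loose form of the NF-kB element, which start 214 and 31 bases before the transcription start. That pattern is frequent, in 8 of the 13 windows and in 42.3% of all, and matches can overlap. Those in the printed Sgk1 window are left in lower case. The match in the printed Tsc22d3 window begins 187 bases before the transcription start. It overlaps the marked receptor core and is therefore partly in capitals. Elements farther from the start lie outside these windows.

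Only 4 of the 14 probe sets carried values that differed visibly between rats. For 29759 of 31042 probe sets the deposited log2 values of the highest and lowest rat lay within 0.01 of each other. Such compressed probe sets cannot be read as levels that rise or fall. Probe sets that ranged over more than 0.05, called variable here, were 3.94% of all and 28.6% of the members. The variable members were the single probe sets of Sgk1 (range 0.66), Tsc22d3 (0.55) and Nfkbia (0.41) and 1 of the 3 probe sets of Klf9 (0.46).

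The other 10 member probe sets ranged over 0.00033 to 0.0010, so the nearest of them to the limit of 0.01 lay far below it. They belong to genes with well-known roles. Fkbp5 encodes a co-chaperone that lowers the hormone binding of the receptor and is induced by it, a short feedback loop, and its 2 probe sets ranged over 0.00050 and 0.00081. Ddit4 encodes an inhibitor of mTORC1 signalling, and its probe set stood at a mean of 8.52 and ranged over 0.00047. Errfi1 encodes an inhibitor of epidermal growth factor receptors (mean 7.62, range 0.0010). Pdk4 encodes a kinase that shuts off pyruvate dehydrogenase, and its probe sets ranged over 0.00037 and 0.0010. Cdkn1a encodes the cell-cycle inhibitor p21, and its probe sets ranged over 0.00033 and 0.00049. For these 5 genes the values say nothing on differences between animals or diets.

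**Figure D1:**
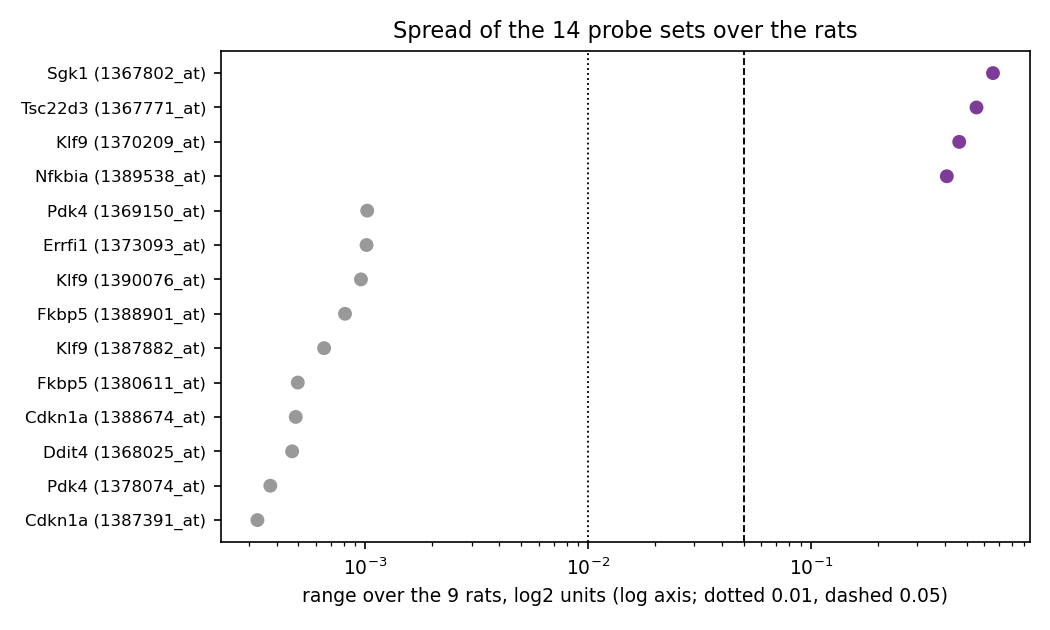
Range of each of the 14 member probe sets over the 9 rats, in log2 units on a log axis, with a dotted line at 0.01 and a dashed line at 0.05. Purple points are the 4 variable probe sets, at 0.41 to 0.66, and grey points the 10 compressed ones, all at or below 0.0010.

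Sgk1 encodes a serum- and glucocorticoid-induced kinase that acts on ion channels and transporters. It measured 8.19, 8.15, 7.97 and 8.45 in noodle-diet rats 1, 4, 7 and 13, against 8.33, 8.55, 8.62, 8.07 and 8.30 in control rats 2, 5, 8, 11 and 14. Noodle-diet rat 7 was the lowest of all and control rat 8 the highest, and the diets overlapped. The means were 8.19 ± 0.20 for the noodle diet and 8.37 ± 0.22 for the control diet (SD, n = 4 and 5), a difference of -0.19 (SE 0.13, 95% interval -0.50 to 0.13; limma adjusted p = 1). In a whole-tissue sample, fewer cells of a type and less RNA per cell cannot be told apart.

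Tsc22d3 encodes GILZ, a leucine zipper protein that carries part of the anti-inflammatory action of the hormone. It measured 9.33, 9.42, 9.07 and 9.49 in noodle-diet rats 1, 4, 7 and 13, against 9.48, 9.45, 9.63, 9.10 and 9.39 in control rats 2, 5, 8, 11 and 14. Noodle-diet rat 7 and control rat 11 lay together at the bottom, apart from the other 7 rats. The means were 9.33 ± 0.18 and 9.41 ± 0.19 for noodle and control diets, a difference of -0.080 (SE 0.12, 95% interval -0.36 to 0.20; limma adjusted p = 1). Without noodle-diet rat 7 the difference was 0.0046.

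Klf9 encodes a zinc-finger transcription factor that both glucocorticoid and thyroid hormone induce in neural cells. Its variable probe set measured 9.30, 9.42, 9.13 and 9.39 in noodle-diet rats 1, 4, 7 and 13, against 9.57, 9.39, 9.59, 9.30 and 9.20 in control rats 2, 5, 8, 11 and 14. Control rats 2 and 8 stood above every other rat, and noodle-diet rat 7 was again the lowest. The means were 9.31 ± 0.13 and 9.41 ± 0.17 for noodle and control diets, a difference of -0.10 (SE 0.099, 95% interval -0.33 to 0.13; limma adjusted p = 1). It was -0.040 without noodle-diet rat 7, -0.059 without control rat 2, -0.055 without control rat 8 and -0.15 without control rat 14. The 2 compressed Klf9 probe sets pointed in opposite directions, by -0.00022 and 0.00016.

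Nfkbia encodes the inhibitor that holds NF-kB in the cytoplasm, and both glucocorticoids and NF-kB itself induce it. It measured 7.45, 7.41, 7.34 and 7.66 in noodle-diet rats 1, 4, 7 and 13, against 7.48, 7.75, 7.49, 7.53 and 7.47 in control rats 2, 5, 8, 11 and 14. In 3 of 4 noodle-diet rats the value was below every control, while noodle-diet rat 13 was above all controls but rat 5. The means were 7.47 ± 0.14 and 7.54 ± 0.12 for noodle and control diets, a difference of -0.077 (SE 0.080, 95% interval -0.26 to 0.11; limma adjusted p = 1). It was -0.036 without noodle-diet rat 7, -0.14 without noodle-diet rat 13 and -0.026 without control rat 5.

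**Figure D2:**
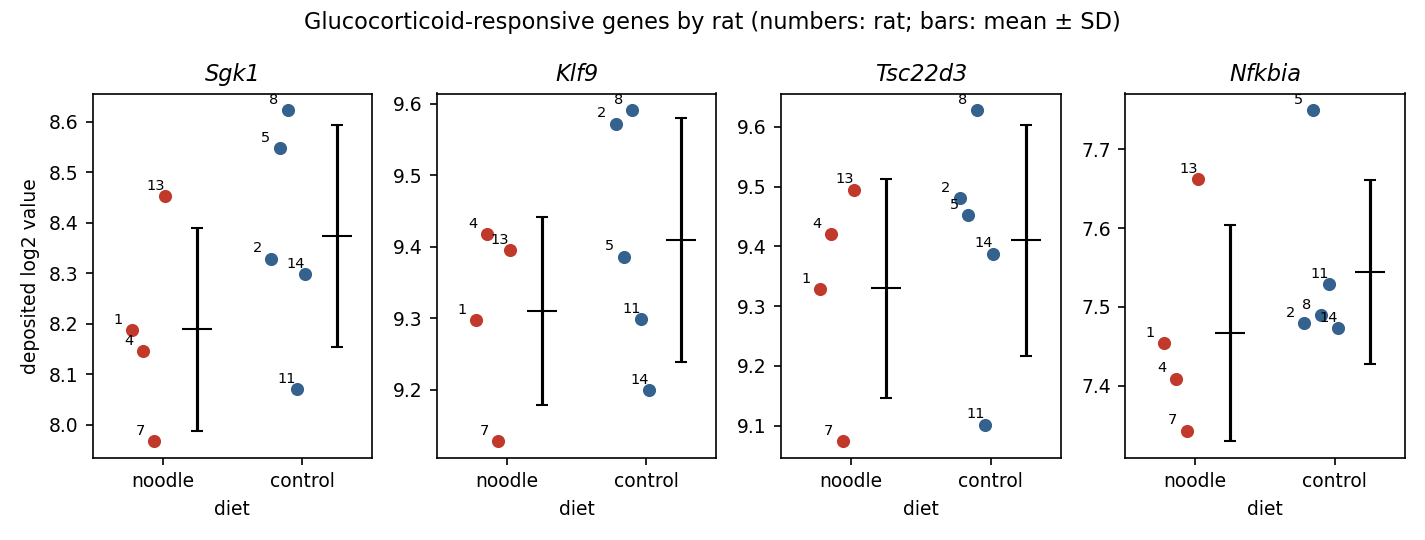
Deposited log2 values of Sgk1, Klf9, Tsc22d3 and Nfkbia, with 1 point per rat (numbered) from the noodle-diet group (left) and the control group (right), and mean ± SD as bars. Noodle-diet rat 7 is the lowest animal for all 4 genes, and the diets overlap for each of them.

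Over all members no diet difference passed the test. Of the 14 probe sets, 0 had an adjusted p under 0.05, against 0% of all probe sets tested, and 0 had an unadjusted p under 0.05, against 2.29%. The diets overlapped in all 14, whereas they did not overlap in 0.567% of all probe sets. The smallest unadjusted p among members was 0.119, of a compressed Klf9 probe set. On the noodle diet 11 of 14 probe sets were lower, all 4 variable ones included, while 52% of all probe sets and 48.1% of the variable ones were lower. The median difference was -0.090 for the 4 variable members and 0.0035 for the 1223 variable probe sets. The count of lower members rests largely on compressed probe sets, of which 7 of 10 were lower as deposited, 9 after quantile normalization and 4 with a common array median.

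Array weights, which down-weight noisy arrays, brought the differences of Sgk1, Tsc22d3 and Nfkbia to -0.10, -0.026 and -0.032, with none passing. Sgk1 ran from -0.27 (without noodle-diet rat 13) to -0.11 (without noodle-diet rat 7), with -0.12 without control rat 8, and Tsc22d3 from -0.16 (without control rat 11) to 0.0046, with -0.14 without noodle-diet rat 13 and -0.026 without control rat 8. Entering the myelin or the meningeal score described below as a covariate, alternatives chosen after seeing the data, left Sgk1 at -0.19 and -0.17, Klf9 at -0.10 and -0.091, Tsc22d3 at -0.083 and -0.070 and Nfkbia at -0.078 and -0.074.

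Other genes of the glucocorticoid system gave no diet difference that passed either. A list of further receptor targets had 27 measured genes on 35 probe sets, of which 0 passed and 6 were variable. Of the variable ones 3 were lower and 3 higher on the noodle diet. The compressed ones, which cannot be read as levels that differ, were 17 lower and 12 higher, and over all probe sets 52% were lower. Sult1a1, a sulfotransferase, measured 7.16 ± 0.51 for the noodle diet and 7.43 ± 0.38 for the control diet (difference -0.26, SE 0.28). That difference was -0.46 without noodle-diet rat 1, -0.12 without noodle-diet rat 4 or 7 and -0.15 without control rat 8. The metallothionein gene Mt2A measured 8.45 ± 0.38 and 8.39 ± 0.47, and Txnip, an inhibitor of thioredoxin, 8.49 ± 0.32 and 8.53 ± 0.22, for noodle and control diets. Anxa1, the annexin that damps inflammation, measured 7.60 ± 0.40 and 7.53 ± 0.16, the connexin gene Gjb6 8.81 ± 0.20 and 8.82 ± 0.26, and the variable one of 3 probe sets of Glul (glutamine synthetase) 9.82 ± 0.087 and 9.79 ± 0.12, in the same order. The directions of Mt2A, Txnip, Anxa1, Gjb6 and Glul turned when single rats were left out. Most classical targets on this list, Per1, Dusp1, Mt1, Cebpd and Plin4 among them, had compressed probe sets only.

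Genes that make, carry or receive the signal were 16 measured genes on 21 probe sets, of which 0 passed, against 0% of all probe sets. Only 2 were variable, both higher on the noodle diet, while 48.1% of all variable probe sets were lower. The compressed ones, which cannot be read as levels that differ, were 13 higher and 6 lower, and over all probe sets 52% were lower. The receptors Nr3c1 and Nr3c2, the enzymes Hsd11b1 and Hsd11b2 that regenerate and inactivate the hormone, and Crh, the peptide that starts the axis, were all compressed. Vasopressin (Avp), which acts with Crh at the pituitary, measured 11.44 ± 0.64 for the noodle diet and 11.28 ± 0.34 for the control diet, and the difference of 0.17 became 0.48 without noodle-diet rat 1, whose value was 10.49, and 0.033 without noodle-diet rat 13. Hsp90ab1, a chaperone of the unliganded receptor, measured 11.67 ± 0.050 and 11.64 ± 0.078 for noodle and control diets in its variable probe set (difference 0.028), and 0.0016 apart without control rat 8. The only probe set of the list with an unadjusted p under 0.05 was the compressed one of Crhbp, at -0.00025, while 2.29% of all probe sets had such a p.

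**Figure D3:**
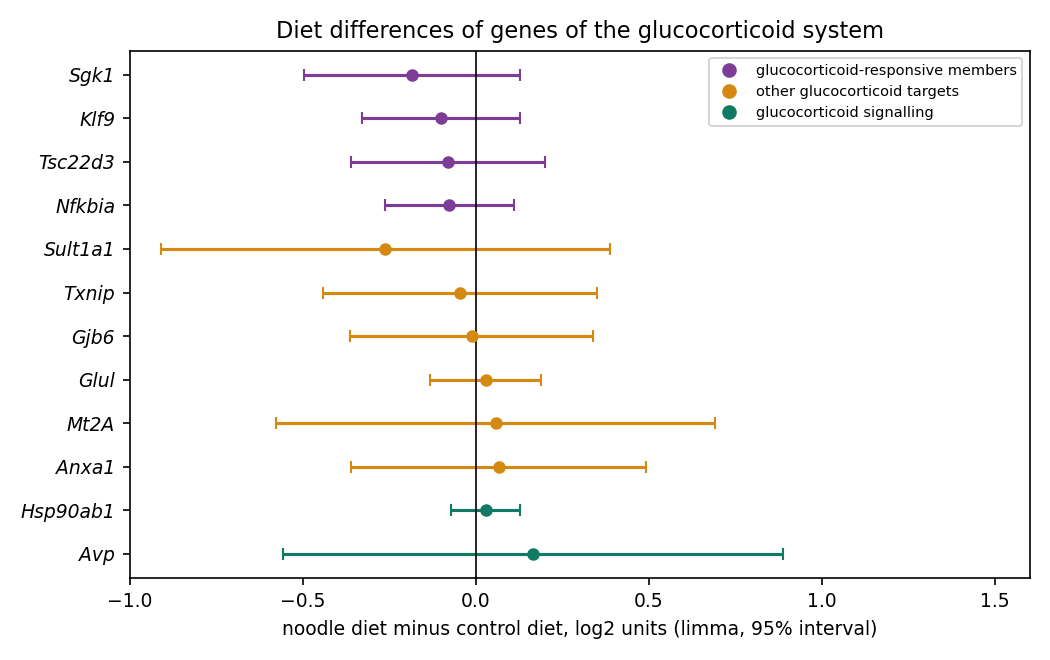
Noodle diet minus control diet in log2 units with 95% intervals from limma (4 and 5 rats), for the variable probe sets of the 4 members (purple), of other receptor targets (orange) and of signalling genes (green). Each interval spans 0.

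Co-variation between animals was read for the 6 pairs of variable members, none of which passed adjustment over the variable probe sets. Over the 9 rats Sgk1 and Tsc22d3 had a Pearson r of 0.88 (exact permutation p = 0.0013) and a Spearman rho of 0.90 (exact permutation p = 0.0020). Klf9 followed Tsc22d3 with r = 0.79 (exact permutation p = 0.0134; rho 0.85, exact permutation p = 0.0061) and Sgk1 with r = 0.67 (exact permutation p = 0.0490; rho 0.63, exact permutation p = 0.0760). Nfkbia followed Sgk1 with r = 0.67 (exact permutation p = 0.0450; rho 0.67, exact permutation p = 0.0589), but Tsc22d3 only at 0.39 (exact permutation p = 0.300; rho 0.53, exact permutation p = 0.147) and Klf9 only at 0.27 (exact permutation p = 0.490; rho 0.37, exact permutation p = 0.336).

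All 6 pairs were positive and 4 had an unadjusted p under 0.05. The background differs by gene. Among the 1222 other variable probe sets, 5.32% had such a p with Sgk1, 8.67% with Klf9, 4.83% with Tsc22d3 and 1.23% with Nfkbia. Of its 3 pairs with members, Sgk1 had 3, Klf9 2, Tsc22d3 2 and Nfkbia 1. Ranked by r among the 1222, Tsc22d3 stood at rank 3 for Sgk1 and Sgk1 at rank 3 for Tsc22d3, and Tsc22d3 stood at rank 10 for Klf9. Klf9 stood at rank 12 for Tsc22d3. Sgk1 stood at rank 8 for Nfkbia, but Nfkbia at rank 59 for Sgk1. Klf9 was at rank 60 for Sgk1 and Sgk1 at rank 86 for Klf9. Nfkbia was at rank 398 for Tsc22d3 and 528 for Klf9, and for Nfkbia these genes stood at ranks 140 and 332. Adjusted over those 1222 relations, no pair passed. The adjusted p of Sgk1 with Tsc22d3 was 0.398 taken from Sgk1 and 0.506 taken from Tsc22d3, and 0% of the 1222 passed with any of the 4 genes. The pairs are therefore a description of these rats, and the genes were listed with earlier results of the same rats known.

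The relation of Sgk1 with Tsc22d3 had the highest r of the 6. It lay between 0.83 and 0.94 when single rats were left out, and it was 0.89 (exact permutation p within diets = 0.0038) for deviations from the diet means. Without the 2 rats farthest from the median of Sgk1, noodle-diet rat 7 and control rat 8, r was 0.74 (exact permutation p = 0.0433), and without those farthest in Tsc22d3, noodle-diet rat 7 and control rat 11, it was 0.80 (exact permutation p = 0.0254). Klf9 with Tsc22d3 was 0.51 without noodle-diet rat 7 and control rat 8 (exact permutation p = 0.256) and 0.80 without noodle-diet rat 7 and control rat 11, the 2 farthest in Tsc22d3 (exact permutation p = 0.0327). It was 0.77 for deviations from the diet means (exact permutation p within diets = 0.0226). Leaving out noodle-diet rat 7 or control rat 8 alone gave 0.67 and 0.70 (exact permutation p = 0.0638 and 0.0556). Sgk1 with Klf9 was 0.26 without noodle-diet rat 7 and control rat 8 (exact permutation p = 0.594), and 0.52 to 0.74 with single rats left out. Those 2 rats are the lowest and highest for both genes. Removing both ends of a range can by itself lower r, so what the relation rests on stays undecided. Sgk1 with Nfkbia was 0.80 without noodle-diet rat 7 and control rat 8 (exact permutation p = 0.0302), but 0.50 without noodle-diet rat 13 and control rat 5, the 2 farthest in Nfkbia (exact permutation p = 0.256). For deviations from the diet means, Sgk1 had r = 0.62 with Klf9 (exact permutation p within diets = 0.115) and 0.62 with Nfkbia (exact permutation p within diets = 0.114).

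**Figure D4:**
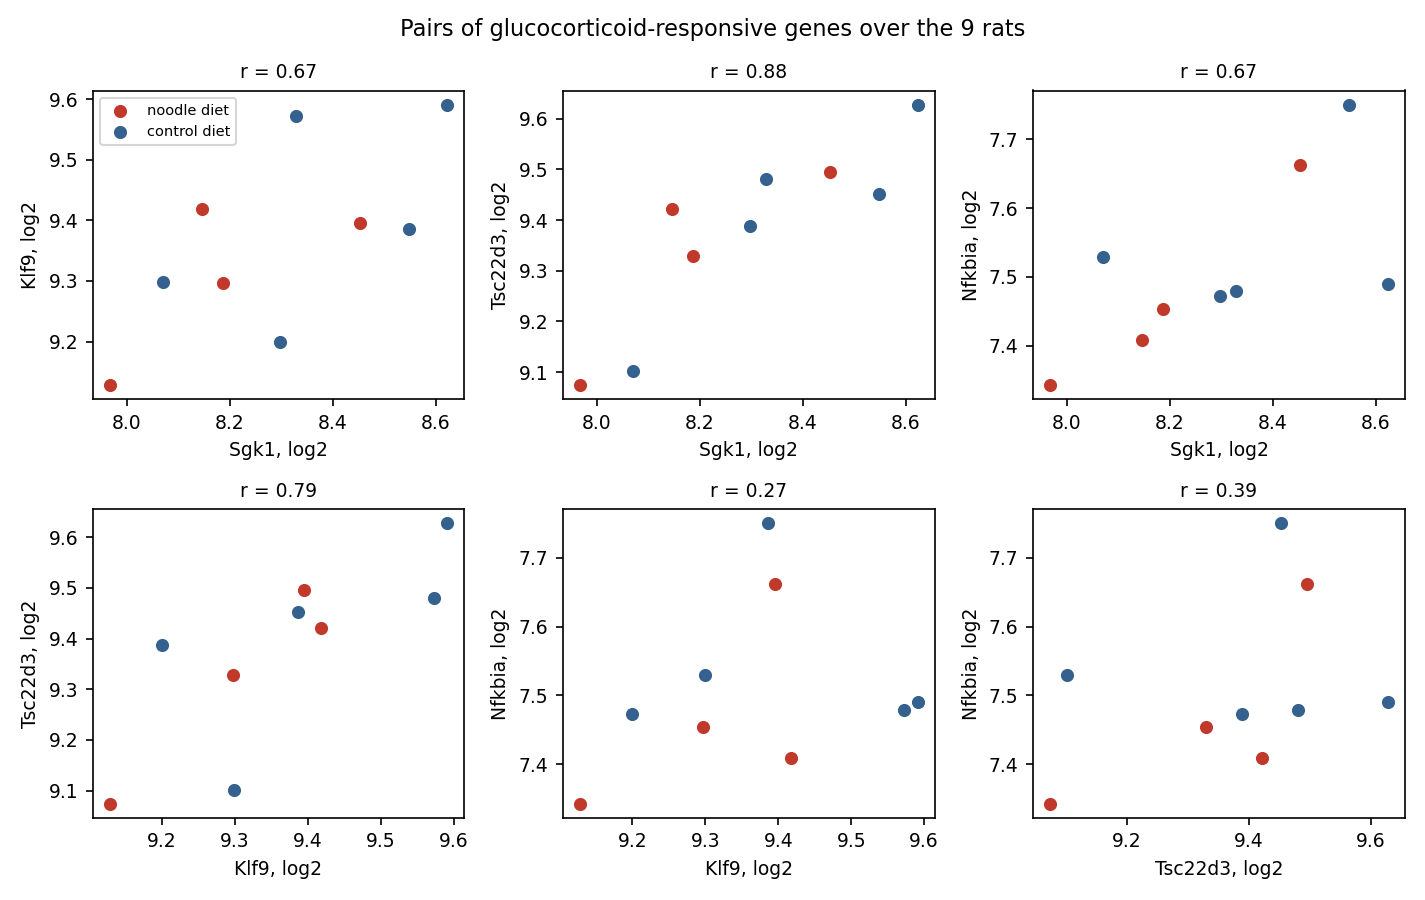
The 6 pairs of variable members over the 9 rats, log2 values on both axes, noodle-diet rats in red and control rats in blue, with Pearson's r above each panel. Sgk1 and Tsc22d3 lie closest to a line (r = 0.88), and Nfkbia against Klf9 shows the widest scatter (r = 0.27).

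The genes whose pattern was most like that of each member were taken from the 935 other named variable probe sets, by Pearson's r over the 9 rats and with no test. For Sgk1 the nearest was Gpd1 (r = 0.94), which encodes the cytosolic glycerol-3-phosphate dehydrogenase. Gpd1 measured 8.19, 7.99, 7.81 and 8.33 in noodle-diet rats 1, 4, 7 and 13, against 8.06, 8.43, 8.68, 7.85 and 8.08 in control rats 2, 5, 8, 11 and 14. Like Sgk1, it was lowest in noodle-diet rat 7 and highest in control rat 8. Gpatch4, a gene of a G-patch protein (r = 0.91), and Tsc22d3 itself came next, and the most opposed was Serpini1, the gene of neuroserpin (r = -0.77).

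For Tsc22d3 the nearest were the membrane glycoprotein gene Cd99 (0.90), Gpatch4 (0.90) and Sgk1, and the most opposed a probe set of the sorting receptor gene Sorl1 (-0.78). Klf9 kept other company, with the secreted glycoprotein gene Fstl1 (0.89), Tsc22d1 (0.86) and the laminin gene Lamb2 (0.83) nearest, and Ndrg2 most opposed (-0.80). Nfkbia was nearest to the small heat shock protein gene Hspb1 (0.88), to Rnf6 (0.82) and to Eya1 (0.72), and most opposed to Snx10 (-0.74). Hspb1 measured 6.91, 6.62, 6.76 and 7.37 in noodle-diet rats 1, 4, 7 and 13, against 6.67, 7.34, 7.02, 6.95 and 6.80 in control rats 2, 5, 8, 11 and 14. Noodle-diet rat 13 and control rat 5 were the 2 highest rats for both Hspb1 and Nfkbia.

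Because pieces of hypothalamus can hold different amounts of white matter and of their coverings, the members were set beside marker genes of both. A score per rat was the mean deviation of the variable genes of a list from their means over the rats. The variable probe sets set beside a score below include that score's own genes, which follow it by construction. The myelin score used 21 variable genes of 22 measured, with Mbp the one of highest mean. It was 0.0028 ± 0.11 for the noodle diet and -0.0022 ± 0.23 for the control diet, and ran from -0.21 in control rat 2 to 0.34 in control rat 8. The meningeal score used 22 variable genes of 25 measured, with Ptgds highest, and was -0.024 ± 0.48 for the noodle diet and 0.019 ± 0.50 for the control diet.

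With the myelin score, Sgk1 had r = 0.53 (exact permutation p = 0.139; rho 0.40, exact permutation p = 0.291), Tsc22d3 0.43 (exact permutation p = 0.240), Klf9 0.38 (exact permutation p = 0.304) and Nfkbia 0.23 (exact permutation p = 0.558). The rho of Tsc22d3 and of Klf9 was 0.30 (exact permutation p = 0.437 for both), and that of Nfkbia 0.20 (exact permutation p = 0.613). Of the 4 members 0 had an unadjusted p under 0.05, against 27.2% of the 1223 variable probe sets, and 0 passed when adjusted over those 1223, against 12.8%. The adjusted p was 0.308 for Sgk1, 0.413 for Tsc22d3, 0.482 for Klf9 and 0.708 for Nfkbia. Without noodle-diet rat 1 and control rat 8, the 2 farthest in the score, r was 0.39 for Sgk1 (exact permutation p = 0.393), 0.16 for Tsc22d3 (exact permutation p = 0.759), 0.078 for Klf9 (exact permutation p = 0.876) and 0.64 for Nfkbia (exact permutation p = 0.120). Control rat 8 was the highest rat for the myelin score and for Sgk1, Klf9 and Tsc22d3. Without that rat alone r was 0.23 for Sgk1, 0.10 for Tsc22d3 and -0.0100 for Klf9, and without control rat 2, the lowest in the score, 0.62, 0.60 and 0.77.

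The meningeal score fell into 2 separate sets of rats, with a gap of 0.44 (38.7% of its range) between noodle-diet rat 4 at -0.35 and noodle-diet rat 13 at 0.097, so no correlation coefficient over all rats is given, and none within sets of 4 and 5 rats. Both diets were present on each side of the gap, with noodle-diet rats 4 and 7 and control rats 11 and 14 below it. In the order of the score, from low to high, the rats were control rats 14 and 11, noodle-diet rats 7, 4 and 13, control rats 5, 2 and 8 and noodle-diet rat 1. In that order Sgk1 measured 8.30, 8.07, 7.97, 8.15, 8.45, 8.55, 8.33, 8.62 and 8.19. Tsc22d3 measured 9.39, 9.10, 9.07, 9.42, 9.49, 9.45, 9.48, 9.63 and 9.33. Klf9 measured 9.20, 9.30, 9.13, 9.42, 9.39, 9.39, 9.57, 9.59 and 9.30. Nfkbia measured 7.47, 7.53, 7.34, 7.41, 7.66, 7.75, 7.48, 7.49 and 7.45. The 3 lowest Sgk1 values lay below the gap and the 4 highest above it, while noodle-diet rat 1, with the highest meningeal score of all (0.61), was among the 4 lowest rats for each of the 4 genes. The array median also followed this order, at 6.777 to 6.778 below the gap and 6.781 to 6.785 above it. Most probe sets are compressed and set this median, so it says little on shifts of the variable ones. With a common array median the diet differences were -0.19 for Sgk1, -0.080 for Tsc22d3, -0.10 for Klf9 and -0.077 for Nfkbia. Those differences do not bear on the order along the score, and a shift of the variable probe sets between arrays was not tested. By exact permutation over all 9 rats, which joins both sets, 0 of the 4 members had an unadjusted p under 0.05 with the meningeal score, against 34.6% of the variable probe sets, and 0 passed when adjusted, against 22.3%. The unadjusted exact permutation p was 0.064 for Klf9, 0.075 for Tsc22d3, 0.080 for Sgk1 and 0.438 for Nfkbia. For each of these genes higher values went with a higher score, also with any single rat left out.

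**Figure D5:**
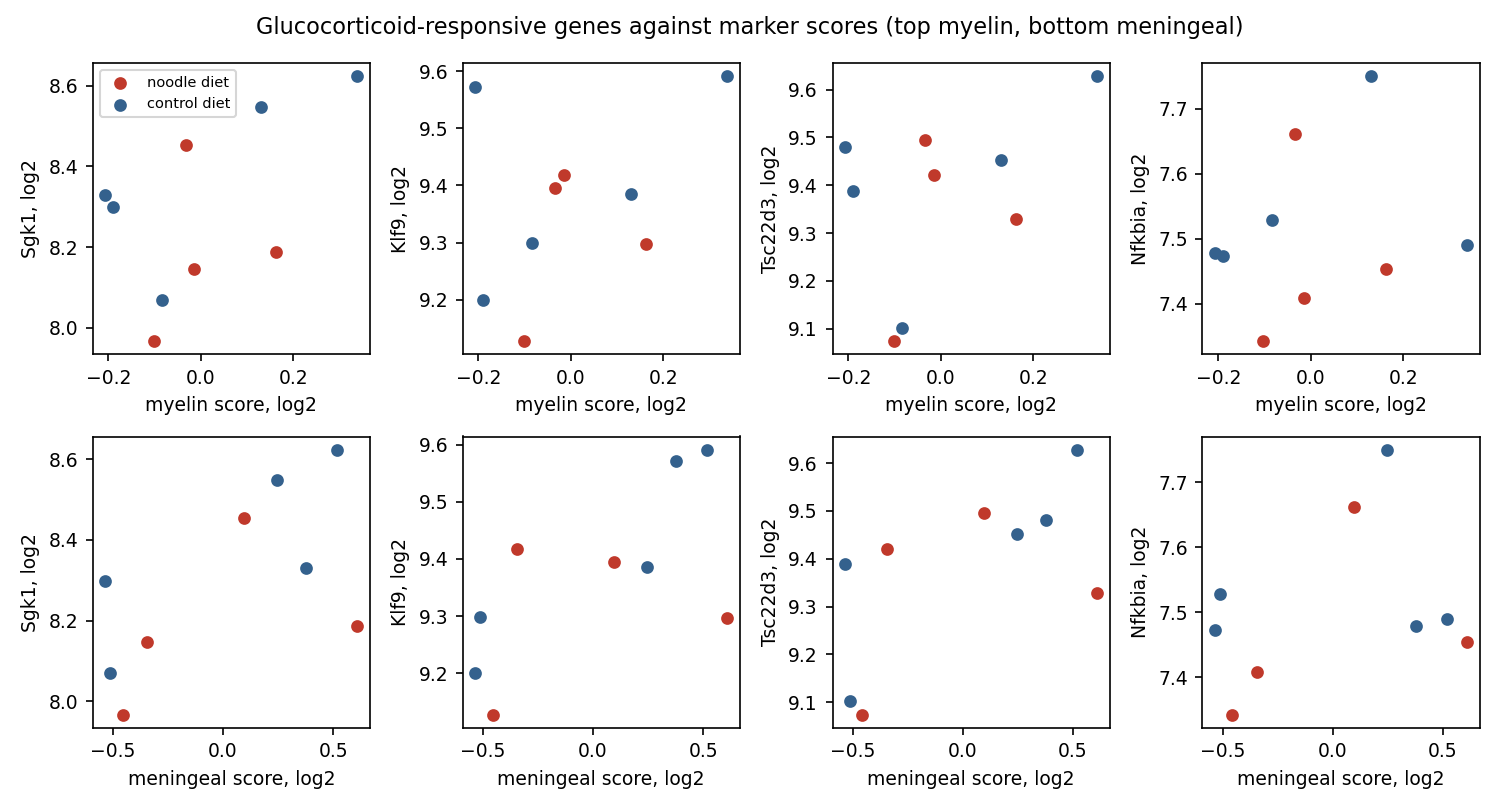
Log2 values of Sgk1, Klf9, Tsc22d3 and Nfkbia against the myelin score (top) and the meningeal score (bottom) of the same 9 rats, noodle-diet rats in red and control rats in blue. Control rat 8, the highest point of the myelin score (0.34), is also highest for Sgk1, Klf9 and Tsc22d3, and the meningeal score leaves a gap between -0.35 and 0.097.

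Markers of blood and of other cells were read the same way, in 24 relations of the 4 members with 6 scores. By Pearson's r, 3 relations had an unadjusted p under 0.05, and 0 passed when adjusted over the 1223 variable probe sets. Depending on the score, 13.25% to 33.12% of the variable probe sets had such an unadjusted p. The globin gene Hbb, the single variable marker of 4 measured erythroid genes, had r = 0.75 with Sgk1 (exact permutation p = 0.0252; rho 0.77, exact permutation p = 0.0214; adjusted p = 0.279) and 0.73 with Klf9 (exact permutation p = 0.0272; rho 0.53, exact permutation p = 0.147; adjusted p = 0.279), against a background of 17.1% of variable probe sets under 0.05. Without the 2 rats farthest in Hbb these were 0.82 (exact permutation p = 0.0300) and 0.88 (exact permutation p = 0.0077). Hbb measured 11.04, 10.57, 10.65 and 11.21 in noodle-diet rats 1, 4, 7 and 13, against 11.54, 11.50, 11.43, 10.95 and 10.65 in control rats 2, 5, 8, 11 and 14. Control rats 2, 5 and 8 were the 3 highest. The neuron score, of 6 variable genes of 13 measured, ran against Klf9 with r = -0.75 (exact permutation p = 0.0183; rho -0.60, exact permutation p = 0.0968; adjusted p = 0.130), and with -0.44 without the 2 farthest rats (exact permutation p = 0.328). Sgk1 with the microglia and macrophage score had r = 0.65 (exact permutation p = 0.0605) but rho 0.75 (exact permutation p = 0.0255). Its r was 0.51 without the 2 farthest rats (exact permutation p = 0.244). Klf9 with the choroid plexus and ependyma score had r = 0.65 (exact permutation p = 0.0600), and 0.86 without the 2 farthest rats (exact permutation p = 0.0155). The part of blood and of these cell types in the members' values was not tested.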

How the data were processed

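Expression was measured in hypothalamus of 9 rats, 1 array each, 4 noodle-diet and 5 control rats, grouped and numbered by sample title. Per the labels' protocols, TRIzol RNA (100 ng after clean-up) gave the biotin-labelled cRNA. The authors deposited log2 values for 31099 probe sets. Their scale was read from the range (5.13 to 13.66). Their summarization and normalization were not given in the sources used here. Array medians lay between 6.777 and 6.785 and pairwise correlations between 0.997 and 0.999. Most probe sets are compressed, which keeps both close, so they do not show that the variable ones compare between arrays. Values were used as deposited, and the number of arrays limits precision. After 57 control probe sets were left out, 31042 remained: 20826 with 1 symbol, 436 with several and 9780 unnamed here. Symbols were checked by gene number in a rat gene table (GRCr8), where 20758 were found and 0 changed.

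Diets were compared over all 31042 probe sets with limma 3.58.1 (R 4.3.3), using lmFit, then eBayes with its trend option, 2-sided and Benjamini-Hochberg adjusted (threshold 0.05). All differences given are noodle diet minus control diet. By the labels each array is another rat. Correlations over rats have 2-sided exact permutation p-values over all pairings (numpy 2.4.6), adjusted over the variable probe sets (range above 0.05 log2, 1223 in all). Adjusting over the listed genes alone had been planned and is replaced by that, except for 1 count. A score was treated as falling in separate sets where its widest gap exceeded 33.3% of its range with at least 3 rats on each side, a rule chosen after seeing the data. Named genes were all members, variable genes of the 2 glucocorticoid lists, and for each variable member the 3 nearest genes and the 1 most opposed. The members and lists were chosen with earlier results of these data known. Alternatives were quantile normalization, a common array median, no intensity trend, array weights, leaving out means under the 20th percentile, averaged probe sets, rank correlation, diet-centred values, single marker genes (Mog, Ogn) and each rat left out. The code was tested on simulated data.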

Additional observations from a re-analysis of the deposited data

Results flagged for a closer look

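The lowest or highest rat was set against the others of its diet for 12 genes and both marker scores, 28 groups in all, and 3 had 1 rat far from the rest, where chance gives about 1.4. In control rat 5, Nfkbia stood at 7.75, with the other 4 control rats at 7.47 to 7.53. The variable Glul probe set was at 9.69 in noodle-diet rat 4, below a range of 9.85 to 9.87 in the remaining noodle-diet rats. Avp was at 10.49 in noodle-diet rat 1, below a range of 11.64 to 11.84 in the remaining noodle-diet rats.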

How the results depend on the processing

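Across 431 alternative values, 18 reversed, 4 counts moved and 409 were labelled the same. The same meant direction and side of the threshold kept or, for a count, an equal or similar number. The count of compressed members that were lower, 7 as deposited, was labelled the same at 5 to 9. By limma 0 probe sets and 0 members passed in every alternative fit. The rats of the 2 diets share no number, and which of them were fed as pairs was not known here. Pairing was therefore not modelled. Of member pairs, 0 passed as reported and 2 when adjusted over the 6 pairs alone, the adjustment first planned and then replaced. In every other setting 0 passed. With the meningeal score, over both sets of rats, 0 to 1 member passed with single rats left out, the 1 being without noodle-diet rat 1. With the myelin score 0 passed throughout.

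Leaving out single rats, the diet difference ran from -0.16 to 0.0046 for Tsc22d3, -0.13 to 0.17 for Anxa1, -0.096 to 0.068 for Gjb6, -0.019 to 0.072 for Glul, -0.12 to 0.22 for Mt2A and -0.19 to 0.053 for Txnip. Array weights turned Anxa1 to -0.0055 and Mt2A to -0.013, and the meningeal covariate turned Gjb6 to 0.0068. With single rats left out, r ran from -0.029 to 0.36 for Klf9 with Nfkbia and from -0.0100 to 0.77 for Klf9 with the myelin score. Among compressed members 3 to 8 of 10 were lower with single rats left out. The cause was not tested. Averaging the 3 Klf9 probe sets gave -0.033, since 2 of them are compressed. Numbers of rats limit all of this, and signal over background is unknown.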
